A study of Mus musculus with 2 samples.

Results

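The cells described here were C1q-high tumour macrophages, taken from single-cell RNA sequencing of CD45+ DAPI- cells, that is living leukocytes, sorted from B16-F0 melanoma tumours of mice. B16-F0 is a transplantable mouse melanoma line. A cell was a member when the genes C1qa, C1qb and C1qc together had at least 10 unique molecular identifiers (UMIs, each standing for 1 captured RNA molecule) per 10000 UMIs of the cell and when Adgre1, Mrc1 and Ms4a7 together had at least 1. Cells with more than 2 Cd3d and Cd3e UMIs, more than 2 Cd79a UMIs or any Ncr1 UMI were left out, which limits T, B and NK cells. Members were thus chosen by measured UMIs of these genes. The rule held 487 of 22284 filtered cells, 214 from the WT and 273 from the KO library. Both genotypes came from tumour-bearing mice and each was represented by 1 library, so no difference below has a replicate check, no test was made, and every interval in brackets is a 95% interval that covers counting error only. The labels name neither the gene that was knocked out nor the strain, age or number of the mice, so whether the counts fit the KO label was not checked. The labels call the cells tumour-infiltrating regulatory T cells, while the stated sort takes all CD45+ cells.

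C1q is the recognition unit of the classical complement pathway and is built from A, B and C chains encoded by C1qa, C1qb and C1qc, which lie side by side in the genome. Most C1q in tissues is made by macrophages, where it binds immune complexes and dying cells and helps their removal. In tumours, macrophages rich in C1q are known to take up dying cells and lipid, to present antigen and to attract or restrain lymphocytes through chemokines. They can descend from resident tissue macrophages or from blood monocytes, and interferon gamma from T and NK cells drives them to make guanylate-binding proteins, immunity-related GTPases and the chemokines Cxcl9 and Cxcl10.

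Promoter sequences are shown for 2 of the genes that define the cells and for 2 interferon-responsive genes described further on. They come from RefSeq on GRCm38.p6, hold the 250 bases before the annotated start and read in the direction of the gene. Capitals mark motifs found by string match on both strands: PU.1 as GAGGAA, the Maf motif as TGCTGA, the gamma-activated site as TTCNNNGAA and the interferon-stimulated element as GAAA and GAAA with 2 bases of any kind between them. The windows of C1qb, chr4:136886201-136886450 on the minus strand, and C1qc, chr4:136892915-136893164 on the minus strand, were as follows, and C1qa was not matched.
C1qb: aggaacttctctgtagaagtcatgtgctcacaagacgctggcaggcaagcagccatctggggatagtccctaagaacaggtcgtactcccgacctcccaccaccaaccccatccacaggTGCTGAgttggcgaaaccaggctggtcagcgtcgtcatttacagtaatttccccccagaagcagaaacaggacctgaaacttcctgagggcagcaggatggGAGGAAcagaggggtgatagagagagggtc
C1qc: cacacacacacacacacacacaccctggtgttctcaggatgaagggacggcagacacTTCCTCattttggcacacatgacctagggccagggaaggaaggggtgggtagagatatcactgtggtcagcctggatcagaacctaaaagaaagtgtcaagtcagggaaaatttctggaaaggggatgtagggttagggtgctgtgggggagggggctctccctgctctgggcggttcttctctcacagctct
The C1qb window held a PU.1 match whose first base lay 30 bases before the start and a Maf match at 131, and the C1qc window held a PU.1 match at 193, read on the other strand. PU.1, encoded by Spi1, is the factor that sets the myeloid lineage, and Maf is a factor of mature macrophages. Of 32817 promoter windows of this length, 23.3% held the PU.1 motif and 16.1% the Maf motif, so these matches are common and describe letters only.

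The next windows belong to Cxcl10, chr5:92348890-92349139 on the minus strand, and to Igtp, chr11:58199306-58199555 on the plus strand, both called higher in KO members below.
Cxcl10: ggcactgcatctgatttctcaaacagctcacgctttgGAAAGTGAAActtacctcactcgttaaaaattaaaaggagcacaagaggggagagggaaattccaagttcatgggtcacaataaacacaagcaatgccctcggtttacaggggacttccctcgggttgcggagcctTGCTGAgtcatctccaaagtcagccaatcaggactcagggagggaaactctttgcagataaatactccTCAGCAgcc
Igtp: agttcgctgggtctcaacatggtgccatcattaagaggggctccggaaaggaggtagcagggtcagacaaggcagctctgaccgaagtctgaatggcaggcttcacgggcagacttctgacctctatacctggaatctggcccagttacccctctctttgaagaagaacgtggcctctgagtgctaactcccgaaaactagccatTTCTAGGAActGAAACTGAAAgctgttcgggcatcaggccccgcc
The Cxcl10 window held an interferon-stimulated match at 213 bases before the start and Maf matches at 77 and 9. The Igtp window held a gamma-activated match at 45 and an interferon-stimulated match at 34. The gamma-activated motif was in 7.02% and the interferon-stimulated motif in 2.97% of all windows. Among the 22 genes of the interferon gamma list, 16 were matched to 19 windows. Of these 16 genes, 8 held the gamma-activated and 11 the interferon-stimulated motif in any window. These are counts of genes, while the shares over all windows count single windows. The interferon-stimulated motif was added after the data were seen. Among the C1q genes and the first 12 genes each way in the KO against WT comparison, 27 genes in all, 19 were matched to 20 windows, of which 8 held the PU.1, 9 the Maf, 0 the gamma-activated and 3 the interferon-stimulated motif.

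The libraries held 98438084 UMIs over 11432 barcodes (WT) and 112544655 over 11398 (KO). Members were deep cells, with a median of 17490 UMIs in WT and 14496 in KO against 5191 and 6360 over all filtered cells. Summed over members there were 4463522 WT and 4925827 KO UMIs. Levels below are UMIs of a gene per 1000000 UMIs of these sums (CPM), and 42 barcodes occurred in both libraries, none of them a member. The T, B and NK limits removed many cells that otherwise met the rule, 233 of 447 (52.1%) in WT and 215 of 488 (44.1%) in KO. The removed cells had medians of 36553 and 32828 UMIs and of 15 and 16 Cd3d and Cd3e UMIs, so the members are the cells with C1q and little lymphocyte RNA.

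Members made up 1.92% [1.67, 2.19] of the WT and 2.45% [2.17, 2.76] of the KO filtered cells, a log2 ratio of KO over WT of 0.35 [0.09, 0.62]. That direction depended on the denominator, because B-gated cells were 28.6% of the WT and 3.43% of the KO cells. Outside the B gate the members were 2.69% of 7965 WT and 2.54% of 10749 KO cells (log2 -0.08 [-0.34, 0.18]). Mononuclear phagocytes with little C1q served as the comparison population. They had under 5 C1q UMIs per 10000, at least 1 UMI of Csf1r, Fcgr1 or Adgre1, at least 10 Lyz2 UMIs per 10000, at most 50 S100a8 and S100a9 UMIs per 10000, no Flt3 or Siglech, and the same lymphocyte limits. There were 589 C1q-low cells in WT and 997 in KO. Of C1q-high and C1q-low cells together, the members were 26.7% [23.6, 29.9] in WT and 21.5% [19.3, 23.9] in KO (log2 -0.31 [-0.57, -0.05]).

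The amount of C1q per cell overlapped almost fully between the libraries. The median was 47.3 C1q UMIs per 10000 in WT and 50.4 in KO, the lower quartiles were 22.9 and 24.9, the upper quartiles 80.5 and 84.3, and the highest cells reached 215 and 245. Just inside the threshold, at 10 to 12 per 10000, lay 14 WT and 17 KO cells, and just outside, at 8 to 10, lay 8 and 15 cells. A further 25 WT and 75 KO cells had enough C1q but no Adgre1, Mrc1 or Ms4a7 UMI, and 23 and 35 members passed that step with a single UMI. These values describe the rule and are no finding.

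**Figure D1:**
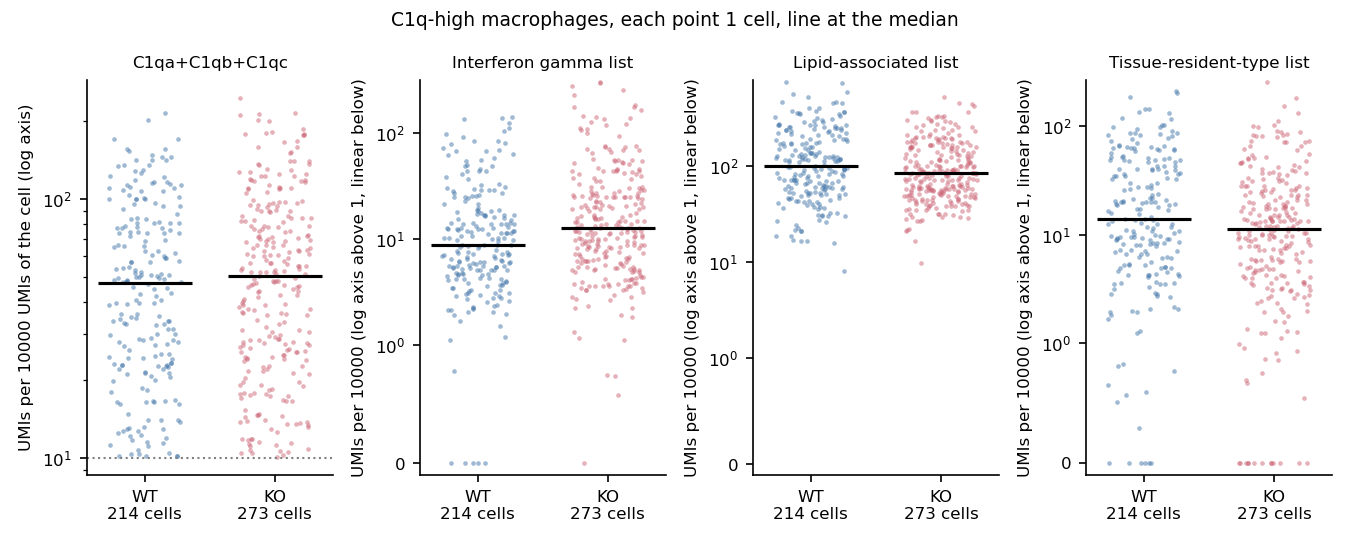
Each point is 1 member cell of the WT (214 cells) or KO (273 cells) library, and lines mark medians. The vertical axes give UMIs per 10000 UMIs of the cell for the C1q genes and for 3 gene lists (log axes, linear below 1 for the lists). The medians of the interferon gamma list were 8.76 in WT and 12.7 in KO, those of the lipid-associated list 102 and 84.3, and those of the tissue-resident-type list 14.0 and 11.3, with wide overlap in every panel.

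General macrophage genes that the rule did not use were found in most members. Csf1r, the receptor for macrophage colony-stimulating factor, had a UMI in 191 of the 214 WT and 246 of the 273 KO members, Cd68, a lysosomal glycoprotein of macrophages, in 201 and 265, Fcgr1, a high-affinity antibody receptor, in 180 and 236, and Lyz2, a myeloid lysozyme, in 210 and 268. Of the 12 macrophage identity genes, Adgre1 of the rule among them, 0 were called higher and 0 lower in KO. Called means here at least 1.5-fold with an interval excluding 1, among genes with at least 20 UMIs over both libraries, which ranks by size and tests nothing. Over all 10322 genes so measured in the members, 296 (2.87%) were called higher and 515 (4.99%) lower in KO, with a median log2 ratio of -0.03. In the C1q-low cells 326 of 10651 (3.06%) were called higher and 460 (4.32%) lower. These shares over all genes are the reference for the list counts below.

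The markers given for the cells were not uniform across them. C1qa was at 1891 CPM in WT and 2189 in KO (log2 0.21 [0.17, 0.25]), and C1qc at 1469 and 1592 (log2 0.12). Mrc1, the mannose receptor, was at 818 and 636 CPM (log2 -0.36 [-0.43, -0.29]). Ms4a7, a membrane-spanning protein of macrophages, was at 238 CPM in WT and 127 in KO (log2 -0.90 [-1.05, -0.76]). All 4 of these genes took part in the rule, so their values are a description. Ccl8, a chemokine for monocytes and T cells that was outside the rule, had a UMI in 66 WT and 76 KO members, and 1 cell held 26.7% of its WT and 1 cell 18.3% of its KO UMIs. Its level was 751 CPM in WT and 977 in KO (log2 0.38 [0.32, 0.44]), short of the 1.5-fold rule.

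Detection by cell showed the same division between shared and restricted genes. At 1000 UMIs per cell, to which all cells were thinned, C1qb had a UMI in 85.0% of WT and 82.8% of KO members, against 99.5% of WT and all 273 KO members unthinned and 0% of B-gated cells, from which C1q was excluded by rule. Mrc1 had a UMI in 34.1% [27.8, 40.9] and 35.5% [29.9, 41.5] of thinned members, Ms4a7 in 15.9% [11.3, 21.5] and 10.3% [6.92, 14.5], and Ccl8 in 13.6% [9.27, 18.9] and 16.8% [12.6, 21.8]. Unthinned, the shares were 81.3% and 83.2% for Mrc1, 58.9% and 39.2% for Ms4a7, and 30.8% and 27.8% for Ccl8. In B-gated cells, which should lack these genes and had medians of 3341 and 3480 UMIs, unthinned shares were at most 2.48% for the 3 genes. Apoe was different, with a UMI in 41.4% of WT and 44.0% of KO B-gated cells, so shares of cells with Apoe are not read as expression here.

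Compared with C1q-low cells, members had higher levels of a set of genes known from resident-type macrophages, and the excess was seen in each library. Since C1q split the 2 populations, these contrasts are descriptions. Gas6, a bridging ligand that links dying cells to the receptors Axl and Mertk, was at 138 CPM in WT members and 0.328 in WT C1q-low cells (log2 8.72 [6.86, 11.8]), and at 58.3 and 0.215 CPM in KO (log2 8.09 [6.22, 11.1]), with 2 UMIs in the C1q-low cells of each library. Folr2, a folate receptor of resident macrophages, had log2 differences of 5.68 in WT and 5.84 in KO, Cbr2, a carbonyl reductase, 5.64 and 5.03, and Igf1, the growth factor, 4.57 and 4.95. Vcam1, an adhesion molecule, had 6.39 and 4.31, and Stab1, a scavenger receptor, 3.51 and 3.34. In the other direction, Itgal, the integrin chain of LFA-1, had -2.57 in WT and -2.36 in KO. The direction of each of these genes was the same in both libraries.

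Interferon gamma response genes were the list with the most calls toward KO. Of 21 measured genes 10 were called higher and 1 lower in KO members, 20 lay above 0, and the median log2 ratio was 0.59, beside 2.87% and 4.99% of all genes called higher and lower. In C1q-low cells 20 of 22 were called higher and 0 lower, with a median of 1.06. The list median in members kept to between 0.49 and 0.74 over all alternative settings. Summed over the list, the level was 1642 CPM in WT and 2405 in KO members.

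The interferon-induced chemokines were the most abundant genes of that group to differ. Cxcl10, which attracts T and NK cells through Cxcr3, had 954 UMIs in 87 WT members and 2235 UMIs in 134 KO members. Its level was 214 CPM in WT and 454 CPM in KO (log2 1.09 [0.98, 1.20]; chromosome 5, 92346638 to 92348889 in GRCm38), and 59.3% of WT and 50.9% of KO members had none. Cxcl9, a second Cxcr3 ligand, was at 219 CPM from 41 WT cells and at 370 CPM from 93 KO cells (log2 0.76 [0.64, 0.87]). After thinning to 1000 UMIs the shares of members with Cxcl10 were 14.5% [10.1, 19.9] and 18.3% [13.9, 23.4], and with Cxcl9 8.88% [5.43, 13.5] and 12.5% [8.78, 17.0], with overlapping intervals for both genes. In C1q-low cells the same chemokines had levels of 543 CPM in WT and 1430 CPM in KO for Cxcl10 (log2 1.40) and 242 CPM in WT and 688 CPM in KO for Cxcl9.

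The interferon-inducible GTPases, which attack the vacuoles of intracellular microbes, lay on the same side. Iigp1, an immunity-related GTPase, had 145 UMIs in 38 WT cells and 547 UMIs in 85 KO cells, that is 32.5 and 111 CPM (log2 1.77 [1.51, 2.05]). Thinned, it had a UMI in 2.80% [1.04, 6.0] of WT and 9.52% [6.32, 13.6] of KO members, intervals that cover counting error within 1 library each. Gbp4, a guanylate-binding protein, was at 26.9 CPM in 46 WT cells and 56.0 CPM in 101 KO cells (log2 1.06 [0.75, 1.38]). Gbp5 (19.0 and 36.9 CPM, log2 0.96), Gbp7 (84.0 and 145 CPM, log2 0.78), Igtp (29.3 and 50.3 CPM, log2 0.78), Irgm2 (log2 0.70) and Gbp6 (log2 0.64) were also called higher. Gbp2b, another guanylate-binding protein that is outside the list, was at 11.9 CPM in 17 WT cells and 49.1 CPM in 62 KO cells (log2 2.05 [1.61, 2.51]).

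Regulators of the response were mixed. Socs1, an inhibitor of the pathway that the pathway itself induces, was at 21.1 CPM in WT and 38.6 in KO (log2 0.87 [0.51, 1.25]). Irf1, a transcription factor induced early in the response, was at 82.2 and 104 CPM (log2 0.33 [0.14, 0.53]), under the 1.5-fold rule. The receptor chains Ifngr1 and Ifngr2 had log2 ratios of -0.24 and -0.11. Irf8, a factor of monocytes and dendritic cells, was the single list member called lower, at 278 CPM in WT and 180 in KO (log2 -0.63 [-0.76, -0.51]). Its ratio was -0.30 without the members that held RNA of other cells, and in C1q-low cells it was 0.44.

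**Figure D2:**
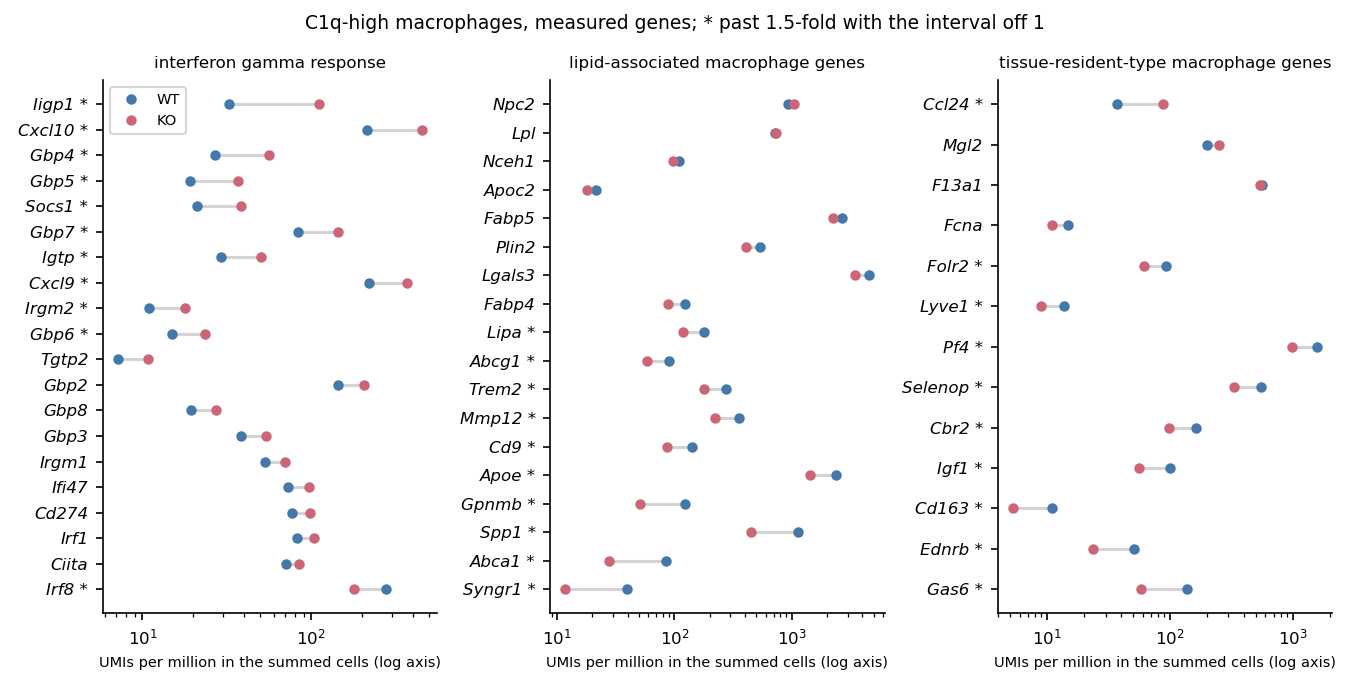
Each panel gives measured genes of 1 list, with the level in the summed WT (blue) and KO (red) members in CPM on a log axis. An asterisk marks genes called at 1.5-fold with an interval excluding 1: 11 of the 20 interferon gamma genes drawn, 10 of them higher in KO, 10 of 18 lipid-associated genes, all lower, and 10 of 13 tissue-resident-type genes, 9 of them lower.

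For 4 of these genes the lymphocyte gates are given as a description. In B-gated cells the log2 ratios were 2.97 for Iigp1, 1.01 for Gbp4, 1.20 for Gbp7 and 0.90 for Cxcl10. The B-gated value of Iigp1 rested on UMIs in 10 of 3188 WT and 9 of 382 KO cells. In T-gated cells the ratios of the 4 genes were 0.76, 0.34, 0.37 and 0.39, of which Iigp1 alone passed the 1.5-fold rule. No test of a difference between gates was possible with 1 library per genotype.

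Genes of the type I interferon response leaned in the same direction with fewer calls. Of 20 measured, 5 were called higher (Ifit2, Ifit3, Isg20, Oas2 and Ifi44) and 0 lower, 19 lay above 0, and the median was 0.28, against 12 calls and a median of 0.72 in C1q-low cells. Of all genes, 2.87% were called higher in members and 3.06% in C1q-low cells. Ifit3 and Oas2 each lost the call in 6 alternative settings. Ifi44, an interferon-induced protein, had 18 UMIs in 12 WT cells and 194 UMIs in 66 KO cells, 4.03 and 39.4 CPM (log2 3.29 [2.59, 4.07]). Its ratio was also high in T-gated (2.30) and B-gated (5.01) cells, the latter from UMIs in 3 of 3188 WT and 11 of 382 KO cells. Ifit2 was at 40.8 and 76.5 CPM (log2 0.91 [0.65, 1.17]), while Isg15, one of the most widely induced genes of this response, was at 246 and 266 CPM (log2 0.11 [-0.0046, 0.23]). Of 11 PYHIN genes, which encode interferon-inducible DNA sensors and their relatives, Ifi206 and Ifi213 were called higher (log2 0.60 each) and Ifi208 lower (log2 -1.39 [-2.33, -0.51]), with a median of 0.40. Ifi213 kept its call in 5 of 14 alternative settings and stood at log2 -0.25 after thinning, and Ifi206 kept it in 10 of 13. Members of this family resemble each other closely, so their counts are uncertain where reads could be shared.

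Antigen presentation genes had small positive ratios. Of 18 MHC class I genes 16 lay above 0 and 0 were called, with a median of 0.24. Tap1, a peptide transporter, was at 107 CPM in WT and 149 in KO (log2 0.47 [0.31, 0.64]), Psmb8, a subunit of the immunoproteasome, at 573 and 764 (log2 0.42), and B2m, the class I light chain, at 2340 and 2681 (log2 0.20). Of 12 MHC class II genes 10 lay above 0, with a median of 0.20. H2-DMa, a chain of the peptide-loading chaperone, was at 378 and 568 CPM (log2 0.59 [0.50, 0.67]) and called higher, as was H2-DMb2 (log2 0.62). H2-DMa lost the call in 7 of 14 alternative settings, and H2-DMb2 in 3 of 13 with a further 1, without the T, B and NK limits, at log2 -0.18. H2-Oa and H2-Ob, the chains of the modulator H2-O that is rich in B cells, were called lower, at 8.74 and 3.05 CPM (log2 -1.52) and at 12.1 and 5.68 CPM (log2 -1.09). Cd22, a B-cell receptor, was also lower (10.1 and 3.86 CPM), and Cd79a, limited by the rule, had 18 UMIs in WT and 0 in KO members. Without the members that held RNA of dendritic cells, neutrophils or red cells H2-Ob stood at log2 0.42, and H2-Oa was not measured there. H2-Oa kept its call in the 12 alternative settings that could measure it. The part of B-cell RNA in the H2-O values was not tested.

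Genes of resident-type macrophages were lower in KO members. Of 13 measured, 9 were called lower and 1 higher, with a median log2 ratio of -0.66, beside 4.99% of all genes called lower. In C1q-low cells 4 of 9 measured were called lower and 1 higher, with a median of -0.75. Among members, Gas6 had 616 UMIs in 62 WT cells and 287 UMIs in 44 KO cells, 138 and 58.3 CPM (log2 -1.24 [-1.45, -1.04]). Folr2 was at 92.5 CPM in 67 WT cells and 61.5 CPM in 55 KO cells (log2 -0.59 [-0.81, -0.37]), just past the 1.5-fold rule. Cbr2 was at 163 and 98.3 CPM (log2 -0.73), Igf1 at 101 and 56.2 CPM (log2 -0.85), and Selenop, a selenium carrier, at 548 and 332 CPM (log2 -0.73), though at log2 -0.35 without the T, B and NK limits. Pf4, a chemokine of platelets and resident macrophages also known as Cxcl4, was the most abundant of them at 1574 and 996 CPM (log2 -0.66 [-0.71, -0.61]).

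Other members of that list were thinly spread over cells. Lyve1, a hyaluronan receptor of vessel-associated macrophages, had a UMI in 11 WT and 8 KO members (13.7 and 8.93 CPM). Cd163, the haemoglobin scavenger receptor, was at 11.0 and 5.28 CPM (log2 -1.06 [-1.80, -0.34]), but 1 WT cell held 55.1% of its UMIs and without the top cell of each library the log2 ratio was -0.28. Ednrb, an endothelin receptor, was at 51.1 and 23.5 CPM (log2 -1.12). Timd4, a receptor for dying cells, had 1 UMI in WT and 13 in KO, too few to be measured, and Vsig4 had 0 in both. Ccl24, a chemokine for eosinophils, was called higher at 37.2 and 88.5 CPM (log2 1.25 [0.99, 1.52]), with 53.0% of its WT UMIs in 1 cell, and stood at log2 -0.04 when the T, B and NK limits were dropped. The list median was -0.35 without those limits, -0.28 after thinning and -1.12 without the deepest members.

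Lipid-associated genes were lower in KO members as a group. Of 18 measured, 10 were called lower and 0 higher, 16 lay below 0, and the median was -0.61, against 4 of 19 called lower and a median of -0.27 in C1q-low cells. Of all genes, 4.99% were called lower in members and 4.32% in C1q-low cells. Spp1, the secreted protein osteopontin, was at 1124 CPM in WT and 452 in KO (log2 -1.31 [-1.39, -1.24]), Gpnmb, a lysosomal glycoprotein, at 123 and 51.4 CPM (log2 -1.26 [-1.48, -1.05]), and Trem2, a lipid-sensing receptor, at 278 and 180 CPM (log2 -0.63 [-0.75, -0.50]). Without the T, B and NK limits Spp1 stood at log2 -0.52 and lost its call. Apoe, the lipoprotein component, had 10649 UMIs in WT and 7112 in KO, 2386 and 1444 CPM (log2 -0.72 [-0.77, -0.68]). Apoe was also detected in B-gated cells. How much Apoe RNA of other cells enters this and the later Apoe levels was not tested.

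Cholesterol export genes lay on the same side. Abca1, which moves cholesterol out of cells, was at 84.5 CPM in 71 WT cells and 27.8 CPM in 44 KO cells (log2 -1.60 [-1.90, -1.32]), and it kept its call under every alternative that could measure it. Abcg1, a partner in export, was at 90.1 and 58.9 CPM (log2 -0.61), and Lipa, the lysosomal lipase, at 180 and 118 CPM (log2 -0.60). Lpl, the secreted lipase, was at 718 and 737 CPM (log2 0.04 [-0.03, 0.11]), and Npc2, a lysosomal cholesterol carrier, at 923 and 1048 (log2 0.18). Nr1h3, the sterol-sensing factor that drives Abca1 and Abcg1, was at 16.6 CPM in both libraries (log2 0.01 [-0.47, 0.48]). Cholesterol synthesis genes were near 0, with 2 of 20 called higher (Nsdhl and Srebf2), 1 lower (Scd1) and a median of 0.14. For Srebf2, 40.6% of KO UMIs came from 1 cell, and Nsdhl stood at log2 0.23 without the T, B and NK limits.

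The members were also split by Mmp12, Arg1 and Spp1, genes of another tumour macrophage state. Members with at least 10 UMIs of the 3 genes per 10000 were 63 of 214 in WT (29.4% [23.4, 36]) and 67 of 273 in KO (24.5% [19.6, 30.1]). Spp1 and Mmp12 are also genes of the lipid-associated list, so its values in these groups are not independent of the split. The lipid-associated median was -0.55 in the remaining members and -0.50 in the Mmp12, Arg1 and Spp1 high members. Single genes of the list differed between these groups in both directions. In the remaining members Apoe was at 2910 CPM in WT and 1375 in KO (log2 -1.08 [-1.13, -1.03]), but among the Mmp12, Arg1 and Spp1 high members it was at 1090 and 1674 (log2 0.62 [0.52, 0.72]). Trem2 had log2 ratios of -0.88 [-1.03, -0.73] and 0.05 [-0.19, 0.28] in these same groups, and Abca1 -2.07 [-2.44, -1.71] and -0.54 [-1.05, -0.05]. The fatty acid carriers had the other order, Fabp4 with 0.90 [0.58, 1.22] and -1.22 [-1.50, -0.96] and Fabp5 with 0.24 [0.19, 0.29] and -0.71 [-0.76, -0.65]. The tissue-resident-type median was -0.81 in the first and 0.10 in the second group, while the interferon gamma median was 0.65 and 0.36. Each group is a range of a score, not a type, and the differences between groups were not tested.

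Scavenging and iron genes followed in part. Of 14 scavenger and pattern receptors 5 were called lower and 1 higher (Marco, from 5 and 6 cells), beside 4.99% and 2.87% of all genes. Of those lower, Cd209f, Cd5l and Cd163 had 88.3%, 95.8% and 55.1% of their WT UMIs in 1 cell each, and Cd5l was on the other side of 0 without the top cells (log2 1.12). Stab1 was at 248 CPM in 113 WT cells and 121 CPM in 113 KO cells (log2 -1.04 [-1.19, -0.90]), and Cd36, a lipid scavenger receptor, at 136 and 81.8 CPM (log2 -0.74 [-0.92, -0.55]), while Msr1, the class A scavenger receptor, was at 293 and 303 CPM (log2 0.05). Of 12 iron and haem genes 3 were lower and 0 higher by the rule, beside 4.99% and 2.87% of all genes. Slc40a1, the iron exporter ferroportin, was at 19.9 CPM in 28 WT cells and 4.87 CPM in 10 KO cells (log2 -2.03 [-2.75, -1.37]). Hmox1, which breaks down haem, was at 888 and 679 CPM (log2 -0.39), and the ferritin chains Fth1 and Ftl1 had log2 ratios of -0.42 and -0.32. Haemoglobin RNA was also lower in KO, at 665 CPM over 4 globin genes in WT members and 6.70 CPM in KO members. Without the members that held RNA of dendritic cells, neutrophils or red cells, Slc40a1 stood at log2 -2.11. The other 2 iron and haem genes called lower, Hpgds and Cd163, stood at -0.64 and 0.12 there. The part of haemoglobin RNA in these values was not tested.

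Most genes for uptake of dying cells did not pass the rule. Mertk, the main receptor for Gas6-coated dying cells in macrophages, was at 17.0 CPM in WT and 18.7 in KO (log2 0.13 [-0.32, 0.59]), Axl at 39.7 and 46.1 (log2 0.22 [-0.07, 0.51]), and of 12 measured genes Gas6 alone was called, lower in KO. Of 13 complement genes, which include the 3 C1q genes of the rule, Cfb, the protease of the alternative pathway, was higher at 48.6 CPM in 82 WT cells and 90.7 CPM in 146 KO cells (log2 0.90 [0.66, 1.14]). C3 had log2 0.17 [-0.12, 0.46], and the 6 Fc receptor genes had a median of 0.23 with 0 calls.

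Chemokine ligands were divided by class. The neutrophil attractants Cxcl1 and Cxcl2 were lower in KO, Cxcl1 at 56.0 and 23.8 CPM (log2 -1.24 [-1.57, -0.92]) and Cxcl2 at 1367 and 812 CPM (log2 -0.75 [-0.81, -0.69]), both also called lower in C1q-low cells (-1.16 and -0.94). Cxcl1 stood at log2 -0.51 in members without the T, B and NK limits. Ccl3, an inflammatory chemokine, was lower at 247 and 164 CPM (log2 -0.58). The monocyte attractants Ccl2 (2686 and 2767 CPM, log2 0.04) and Ccl12 (log2 -0.04) were level, and Ccl7 (log2 0.33) and Ccl6 (log2 0.35) lay above 0 without a call. Ccl5 was called higher at 78.0 and 180 CPM (log2 1.21), but 1 KO cell held 47.5% of its UMIs, and it stood at -1.13 without the members that held RNA of other cells. Ccr2, a receptor of monocytes, had a log2 ratio of 0.41.

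Inflammatory mediators gave calls in both directions. Il1b, the secreted cytokine interleukin 1 beta, was at 149 CPM in 90 WT cells and 290 CPM in 134 KO cells (log2 0.97 [0.83, 1.10]), and Nos2, which makes nitric oxide, at 6.27 CPM in 13 WT cells and 26.0 CPM in 22 KO cells (log2 2.05 [1.45, 2.70]). Il1b stood at log2 0.09 without the T, B and NK limits. Cd40, a costimulatory receptor, was at 24.6 and 39.2 CPM (log2 0.67 [0.32, 1.02]). Il1a was lower, at 10.5 and 2.03 CPM (log2 -2.37 [-3.53, -1.37]), and Tnf was at 54.2 and 45.7 CPM (log2 -0.25 [-0.52, 0.02]).

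Of 16 genes of alternative activation and suppression 3 were called higher (Retnla, Chil3 and Pdcd1lg2) and 0 lower, with a median of 0.02. Beside this, 2.87% of all genes were called higher. Retnla, a secreted protein induced by interleukin 4, had 159 UMIs in 11 WT cells and 1092 UMIs in 21 KO cells, 35.6 and 222 CPM (log2 2.64 [2.40, 2.89]). Chil3, a chitinase-like protein of monocytes and macrophages, was at 139 CPM in 57 WT cells and 254 CPM in 84 KO cells (log2 0.87 [0.73, 1.01]). Arg1, the arginine-degrading enzyme, was at 448 and 302 CPM (log2 -0.57 [-0.66, -0.47]), short of the rule. Of the ligands of the PD-1 receptor, Cd274 was at 77.1 and 97.9 CPM (log2 0.34 [0.14, 0.55]), and Pdcd1lg2 at 4.26 and 12 CPM (log2 1.49 [0.73, 2.32]) from 14 WT and 35 KO cells. Without the T, B and NK limits Pdcd1lg2 stood at log2 0.49. Il10 was at 5.15 and 4.47 CPM.

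Of 20 proliferation genes measured, 6 were called higher in KO members (Top2a, Tyms, Rrm2, Ccna2, Ccnb1 and Tpx2) and 0 lower, with a median of 0.33, beside 2.87% of all genes called higher. In C1q-low cells 0 were called higher and 8 lower, with a median of -0.48, beside 4.32% of all genes called lower. The median in members was 0.08 without the deepest members and 0.10 with no Cd3d, Cd3e or Cd79a UMI allowed, and Top2a stood at log2 0.25 and 0.31 in these settings. Top2a, a DNA topoisomerase of dividing cells, was at 71.9 CPM in 46 WT cells and 119 CPM in 65 KO cells (log2 0.73 [0.53, 0.93]). Mki67, the standard division marker, was at 100.1 CPM in 56 cells and 122 CPM in 60 cells (log2 0.28 [0.11, 0.46]). At 1000 UMIs per cell, 17.3% [12.5, 23] of WT and 20.1% [15.6, 25.4] of KO members had at least 2 UMIs of the list, and 8.66% [6.51, 11.2] and 6.22% [4.80, 7.90] of C1q-low cells. Unthinned, 88.3% and 85.0% of members did, and the intervals of the thinned shares overlapped between the libraries.

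Transcription factors that define macrophages differed little. Spi1 was at 367 CPM in WT and 361 in KO (log2 -0.02 [-0.12, 0.07]), and Maf at 540 and 596 (log2 0.14). Of 25 factors 0 were called higher, and Irf8 and Bhlhe41 were called lower, beside 2.87% and 4.99% of all genes called higher and lower. Bhlhe41, a repressor known from resident macrophages, was at 24.6 CPM in 48 WT cells and 9.74 CPM in 30 KO cells (log2 -1.34 [-1.86, -0.84]). Among immediate early genes Egr1 (log2 -0.62) and Nr4a1 (log2 -0.88) were lower, and Fos (779 and 525 CPM, log2 -0.57) lay just short of the rule. The 13 NF-kB regulators had 0 calls and a median of -0.16, and of 22 glycolysis and hypoxia genes Adm, a hypoxia-induced peptide hormone, was called higher (12.8 and 30.7 CPM, log2 1.26). Among amino acid stress genes Trib3 (log2 -2.63), Phgdh (log2 -1.56) and Slc7a11, the cystine transporter (52.6 and 27.8 CPM, log2 -0.92), were lower. Without the T, B and NK limits Phgdh stood at log2 0.10 and Nr4a1 at -0.25.

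**Figure D3:**
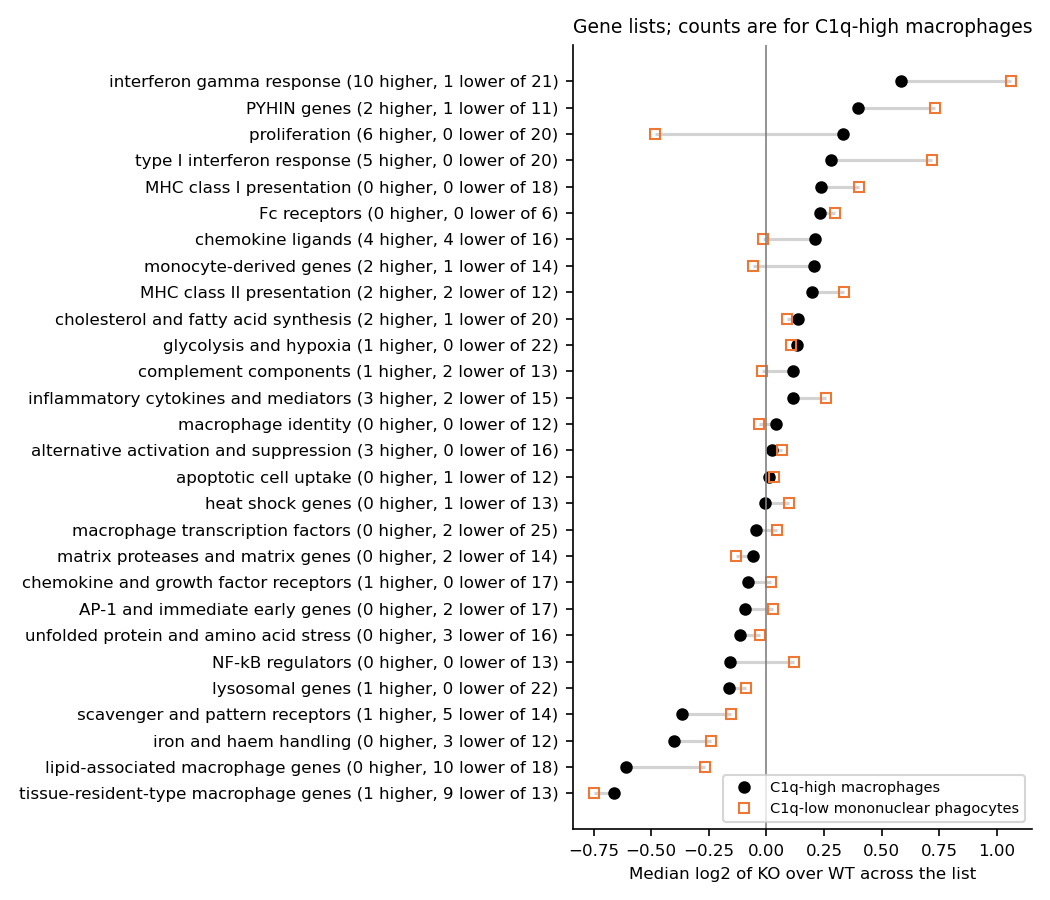
Medians of the log2 ratio of KO over WT for 28 gene lists, in C1q-high members (filled circles) and C1q-low mononuclear phagocytes (open squares). The labels give the calls in members. The interferon gamma list is highest (0.59 in members, 1.06 in C1q-low cells), the tissue-resident-type list lowest (-0.66 and -0.75), and the proliferation list is on opposite sides of 0 (0.33 and -0.48).

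Among genes ranked over the whole table, the first 12 higher were Rnase2a, Ifi44, Ccr7, Retnla, Gbp2b, Iigp1, Nos2, Hal, Tpm3-rs7, Ccl24, Cxcl10 and Plaat3. Rnase2a, a secreted ribonuclease of the eosinophil-associated family, had 8 UMIs in 6 WT cells and 290 UMIs in 36 KO cells, 1.79 and 58.9 CPM (log2 5.04 [4.04, 6.26]; chromosome 14, 51255262 to 51256112). Close relatives of this gene exist, so its count is uncertain where reads could be shared. Hal, the histidine-degrading enzyme, had 250 UMIs in 32 WT cells and 829 UMIs in 92 KO cells (log2 1.59 [1.38, 1.80]; chromosome 10, 93488768 to 93519304). Plaat3, a phospholipase, was spread over 61 WT and 141 KO cells (24.4 and 59.3 CPM, log2 1.28 [0.96, 1.61]), and stood at log2 0.41 without the T, B and NK limits. Tpm3-rs7, a gene named as related to tropomyosin Tpm3, had log2 1.62 in members and 2.00 in T-gated, 2.03 in NK-gated and 2.33 in B-gated cells, and its reads could be shared with Tpm3.

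Several of the first 12 lower genes rested on 1 WT cell. They were Mt3, Cd209f, Pecam1, Cd5l, Ltc4s, Ppbp, Saa3, Enah, Sept3, Dennd5b, Hspb1 and Abca1. All 135 Mt3 UMIs, of a metallothionein, came from 1 WT cell, and 88.3% of the 111 Cd209f UMIs, of a C-type lectin, from 1 of 3 WT cells. Both had 0 UMIs in KO. With the floor of 3 counts over the group in place of 0, Mt3 was 49.7-fold and Cd209f 40.8-fold lower in KO. These are point values set by the floor and are not lower limits. One cell also held 95.8% of the WT UMIs of Cd5l, a macrophage survival protein, 89.3% of those of Enah, an actin regulator, and 75.8% of those of Pecam1, an adhesion molecule. Without the top cell of each library, Cd5l stood at log2 1.12, Enah at 0.68, Pecam1 at -1.30 and Dennd5b at -0.32. Abca1, Sept3, Ltc4s and Hspb1 kept ratios of -1.60, -2.76, -2.64 and -1.61 in the same setting. Without the T, B and NK limits Hspb1 stood at log2 -0.33 and lost its call.

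**Figure D4:**
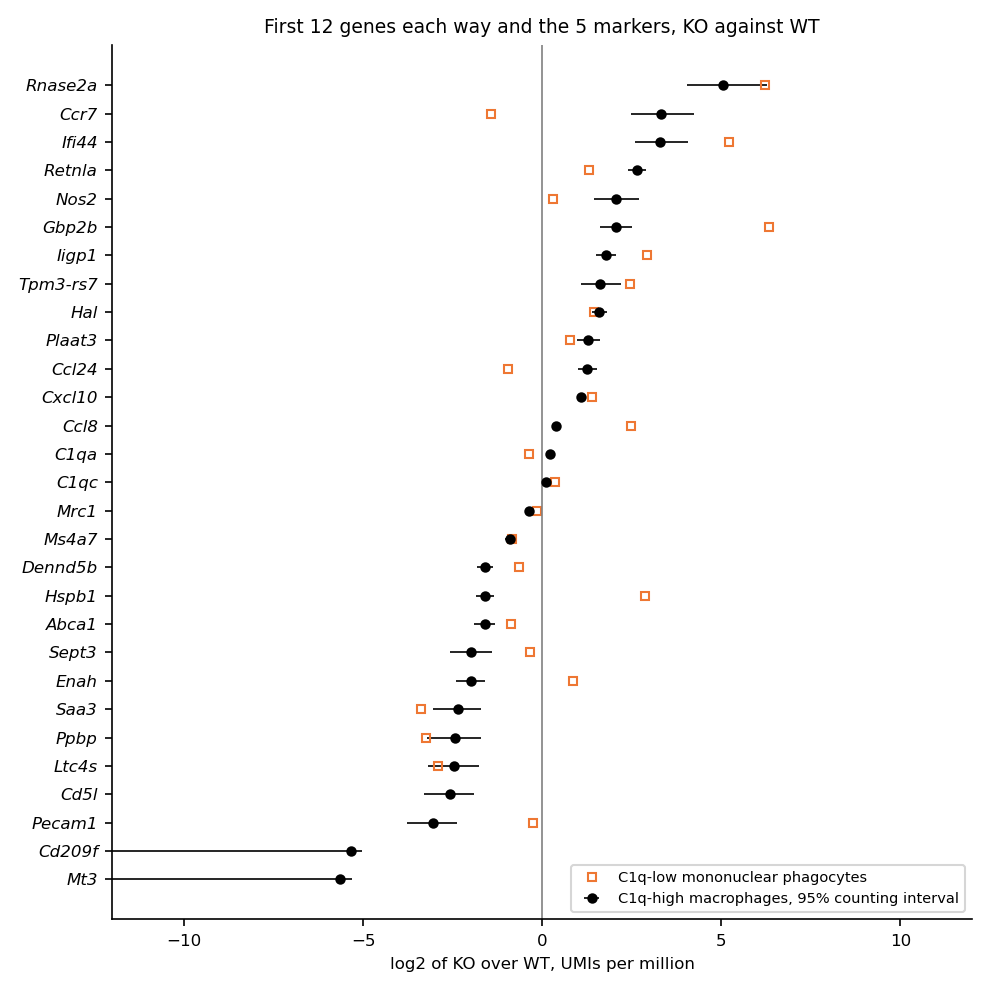
Log2 ratio of KO over WT for the first 12 genes each way and the 5 markers, in C1q-high members (filled circles with 95% counting intervals) and in C1q-low cells (open squares, shown at 20 or more UMIs). The intervals of Mt3 and Cd209f run off the axis because KO members had 0 UMIs. Ccr7, Ccl24, Enah and Hspb1 have the C1q-low value on the other side of 0 and past the 1.5-fold rule in both populations.

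RNA of other cell types was present in the members and differed between the libraries. The 4 globin genes summed to 665 CPM in WT and 6.70 in KO, and the neutrophil list to 108 and 43.0 CPM, with S100a9 at 29.8 and 0.812 CPM. T-cell genes summed to 60.3 and 51.4 CPM, B-cell genes to 145 and 95.2, NK-cell genes to 37.9 and 73.3, and melanoma genes to 54.2 and 38.8. Ncr1, the defining NK gene, was at 0 by rule, and the fibroblast genes Col1a1, Col3a1 and Dcn were at 0 in both libraries. Of dendritic cell genes, Siglech, of plasmacytoid cells, had 93 UMIs in 6 WT cells and 3 UMIs in 2 KO cells, Xcr1, of type 1 conventional cells, 76 UMIs in 9 and 30 in 11 cells, and Ccr7, of mature cells, 13 UMIs in 11 and 142 in 6 cells, 59.2% of the latter in 1 cell. Counted by RNA of dendritic cells, neutrophils or red cells, 28 of 214 WT and 9 of 273 KO members held such RNA. Without them the interferon gamma median was 0.58, the lipid-associated median -0.59 and the tissue-resident-type median -0.72. In that setting 325 genes were called higher and 419 lower.

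Within the members, cells with more C1q differed from those with less in many genes, which describes a split made on C1q itself. Members were divided into 3 groups of C1q at 28.8 and 69.2 UMIs per 10000, with 74, 71 and 69 WT and 88, 91 and 94 KO cells. From the lowest to the highest group Folr2 went from 21.2 to 69.1 and 175 CPM in WT and from 12 to 28.8 and 116 CPM in KO (highest over lowest log2 3.05 and 3.28). Cxcl10 went the other way, from 423 to 174 and 84.8 CPM in WT and from 970 to 402 and 162 CPM in KO (log2 -2.32 and -2.58). Ly6c2, a surface protein of inflammatory monocytes, went from 534 to 398 and 132 CPM in WT and from 636 to 453 and 120.0 CPM in KO.

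Whole lists followed these genes across the C1q range. The median of the tissue-resident-type list, highest over lowest group, was 2.97 in WT and 2.62 in KO, and that of the monocyte-derived list -1.58 and -1.94. The interferon gamma list had -0.96 and -0.91, the MHC class II list -0.99 and -0.98, and the proliferation list 1.84 and 0.88. Ccr2, the receptor that brings monocytes into tissue, had -1.61 and -1.75, and Mki67 2.39 and 1.84. In both libraries the highest-C1q members carried more resident-type and cell-cycle RNA and less monocyte, interferon and class II RNA. Median depth also varied with C1q, from 14719 to 19772 UMIs in WT and from 11604 to 18860 in KO, and its part was not tested.

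Differences between KO and WT were seen at each level of C1q for the interferon gamma list, with medians of 0.61, 0.98 and 0.49 from the lowest to the highest group. The tissue-resident-type list had -0.83, -0.40 and -0.78, and the lipid-associated list -0.70, -0.47 and -0.23. Proliferation medians were 0.66, 0.57 and 0.05. Apoe had ratios of -0.46, -0.16 and -1.13, with 4832 CPM in the highest-C1q WT group and 2209 CPM in the highest-C1q KO group. Cxcl10 was higher in KO in each group (1.20, 1.21 and 0.94), as was Iigp1 (1.77, 2.94 and 1.02), and Gas6 was lower in each (-2.93, -1.47 and -1.22).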

How the data were processed

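The authors deposited whole-number UMI counts per gene and barcode, 1 matrix per genotype, from 10x Genomics 3' libraries. Cell Ranger 5.0.0 is named per the file headers, and Cell Ranger and STAR on mm10 per the submitters' processing notes. For the annotation release, the sources used here give none. Cells with at least 1000 UMIs, 500 genes and at most 10% mitochondrial UMIs were kept. Counts were summed over members per library, so deep cells weigh more, and scaled to CPM. Ratios carry exact conditional binomial and shares Clopper-Pearson 95% intervals (scipy 1.17.1, numpy 2.4.6, pandas 2.3.3). A count of 0 was set to a floor of 3 over the group. No doublets were removed in the values given. Removal by Scrublet scores (scanpy 1.11.5) was an alternative, with other cuts, limits, thinning and weights. The ratio calculation was run on simulated counts drawn independently for each gene, without the clumping by cell seen in some genes. That run checks the calculation and not the calls in these data.

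Named genes had at least 50 UMIs, 20 CPM in the higher library and 0.1 of the CPM of the cell gate where the gene is highest. That ranking left out globin, antibody and ribosomal protein genes, mitochondrially encoded genes, T-cell receptor segments, genes named after clones and genes of sex dosage. The first 12 each way by the interval bound nearest 0, the 5 markers and up to 4 genes of each of 38 lists were taken. The members and lists were chosen with earlier results of these data known. Some genes are not reported here. Clec7a, Mx1, Mx2, Mnda and Pyhin1 were not analysed here. Gene positions are GRCm38. Other genes of a list are given beside these for context.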

Additional observations from a re-analysis of the deposited data

Results flagged for a closer look

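These values had KO over WT ratios on opposite sides of 0 in C1q-high macrophages and in C1q-low mononuclear phagocytes, each past the 1.5-fold rule for the genes. With 1 library per genotype the difference between the populations was not tested. Ccr7, the receptor of migrating dendritic cells, had log2 3.31 in C1q-high macrophages and -1.42 in C1q-low cells. The C1q-low value rested on UMIs in 11 of 589 WT and 3 of 997 KO cells. The chemokine Ccl24 had 1.25 and -0.96. Enah had -2.00 and 0.86, and Hspb1, a small heat shock protein, -1.60 and 2.87. Cx3cr1, the fractalkine receptor, had 0.81 and -1.32, and Ly6i, a Ly6 surface protein, -0.76 and 0.74. Top2a had 0.73 and -0.85, and the median of the proliferation list was 0.33 and -0.48. Beside these values, 59.2% of the KO Ccr7 UMIs and 89.3% of the WT Enah UMIs of the C1q-high macrophages came from 1 cell each. Without the T, B and NK limits the C1q-high values were -0.67 for Ccr7, -0.04 for Ccl24, -0.33 for Hspb1, -0.44 for Cx3cr1 and -0.15 for Ly6i. Enah stood at 0.68 without the top cells, and Top2a at 0.25 without the deepest members. Cx3cr1 kept its call in 8 of 14 alternative settings.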

How the results depend on the processing

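No paired analysis was possible because each genotype has 1 library, and no replicate could be left out. Of 93 named genes called, 12 of 40 higher and 25 of 53 lower kept their call under every alternative that could measure them. Among these 25 were Cd22, S100a9, Siglech, Hbb-bs, Hbb-bt, Hba-a1 and Hba-a2, which were listed as RNA of other cell types. Mt3, from 1 WT cell, was also among them and could not be measured without the top cell. Scd1 was measured in only 5 alternatives. The member share turned from 0.35 to -0.081 outside the B gate and to -0.31 among gated mononuclear phagocytes. Genes called higher and lower numbered 88 and 84 after thinning and 158 and 230 at 100 UMIs per gene, and 846 were lower with each cell weighing the same. Calls with each cell weighing the same used the interval of the summed UMIs, shifted to the new ratio. That interval does not cover the added noise of shallow cells. The tissue-resident-type median was -1.12 without the deepest members, -0.35 without T, B and NK limits and -0.28 thinned. The lipid-associated median was -0.44 at a C1q cut of 20, -0.41 without the deepest members, -0.42 without the limits and -0.40 with each cell weighing the same. Dropping the limits, leaving out members with RNA of other cells, and leaving out top cells in the counts over all genes were chosen after seeing the data. Without the limits these turned: Ccr7 to -0.67, Ccl24 to -0.043, Cd5l to 0.91, Cx3cr1 to -0.44, H2-DMb2 to -0.18, Phgdh to 0.10, Trbc2 to 0.37, Gzma to -0.035, Ccl22 to -1.82 and Fscn1 to -1.41. Without members holding RNA of other cells Cd5l was 1.73, Enah 0.93, Ccl5 -1.13, Cd163 0.12 and H2-Ob 0.42. Without the top cell Cd5l was 1.12, Enah 0.68 and Srebf2 -0.0077. Thinning turned Lyz1 (-0.029), Ifi213 (-0.25) and Mmp12 (0.21). Without Mmp12, Arg1 and Spp1 high members Saa3 was 0.23 and Cx3cr1 -0.22. With no Cd3d, Cd3e or Cd79a UMI Lyz1 was -0.46 and Trbc2 0.45. Enah was 1.55 after doublet scores, Marco -0.50 without the deepest members and Cd163 0.055 at 5% mitochondrial UMIs. The causes were not tested. Dropping the limits kept 112 of the 296 higher and 198 of the 515 lower calls. Depth limits genes under 20 UMIs, which are not called.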
